A study of Mus musculus with 21 samples.

Results

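The 29 genes described here encode enzymes of cholesterol synthesis, proteins that sense sterols, proteins that carry or export cholesterol, and fatty acid enzymes under related control. They were taken by name, from a list drawn up with earlier results of these data known, and all 29 were found among the 55471 genes of the count table. By role, 8 lead from acetyl-CoA to squalene, 10 from squalene to cholesterol, 4 sense sterols, 5 serve uptake, transport and efflux, and 2 make or desaturate fatty acids.

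Levels were measured by RNA sequencing of sorted dendritic cells (DCs) of mice with a reporter knock-in allele, AGF-KI, of Aire, the autoimmune regulator. There were 7 groups of 3 biological replicates, 21 libraries in all. Lymph node cells of the CD45+CD11c+MHCII+ gate were split into AGF+ and AGF− cells. Both came from AGF-KI/+ animals (written KI/+) and from AGF-KI/- animals (AireKO in the titles). In bone marrow the AGF+ cells of either genotype came from the B220−CD24+CD11b−/low gate. A total DC population, which the design text calls AGF−, came from the B220−CD11c+MHCII+ gate and from KI/+ mice alone. All mice were labelled male C57BL/6 of 6 weeks, and every group carries an AGF-KI allele, so no group lacks the reporter. The gates differ between the tissues and between the bone marrow sorts, so tissue or reporter cannot be told apart from gate in those comparisons. The titles name the lymph node samples LNDC and the bone marrow samples BMDC. Whether the bone marrow cells were cultured before sorting is not stated here, and culture could not be told apart from tissue. The labels do not say whether a replicate is 1 mouse or a pool.

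Cells build cholesterol from acetyl-CoA through mevalonate and squalene, in a long chain of enzymes. The later ones sit in the membrane of the endoplasmic reticulum. When sterols in that membrane are low, SCAP carries the transcription factors SREBP-1 and SREBP-2 (made from Srebf1 and Srebf2) to the Golgi for cleavage, and the freed fragments switch on synthesis genes. INSIG proteins hold SCAP back when sterols are high. Oxysterols act in the other direction through LXR receptors, which switch on the export pumps Abca1 and Abcg1 and the E3 ligase Mylip. DCs take in lipid from their surroundings and also synthesize it, and dividing cells need sterols for new membrane.

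Each library held 4164451 to 6055097 counts, and levels are given as CPM, each count divided by its library's normalised size and multiplied by the same constant, so that 1 CPM rests on 3.91 to 6.56 counts. The lowest count of any of the 29 genes in any library was 8, for Fdps. In AGF+ cells Aire itself was at 99.0 to 132 CPM (KI/+) and 22.8 to 26.6 CPM (AireKO) in lymph node, and at 79.6 to 116 and 11.5 to 19.7 CPM in bone marrow. The 8 general DC markers (such as Cd74 and H2-Aa) were detected in every group, with summed levels of 5380 to 11598 CPM. The 7 libraries numbered 2 go against the male label: they held 2028 to 4008 CPM of Xist and at most 0.768 CPM over 4 Y-linked genes, while the other 14 held at most 31.2 CPM of Xist and 331 to 568 CPM of those Y-linked genes. Counts of genes called are therefore also given without these 7 libraries. Nsdhl and Ebp are the X-linked members.

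Cholesterol synthesis genes stood lower in lymph node than in bone marrow DCs, and the difference between the tissues was the largest seen for these genes. In AGF+ KI/+ cells 23 of the 29 genes were lower and 3 were higher in lymph node (edgeR quasi-likelihood test, Benjamini-Hochberg adjusted p under 0.05), where 27.1% of all 17265 genes tested were lower and 27.2% higher. The median log2 difference of the 29 was -1.05, beside 0.04 over all genes. The AGF+ AireKO cells share no library with the KI/+ comparison but were tested in the same fit. Their count was again 23 lower and 3 higher, beside 25.7% of all genes lower and 25.7% higher, with a median of -1.20. Lymph node AGF− cells against bone marrow total DCs gave 20 lower and 3 higher, beside 27.3% and 28.8% of all genes, with a median of -0.94.

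The summed level of the 18 synthesis enzymes was 359 ± 49.1 CPM (SD, n = 3) in lymph node AGF+ KI/+ cells and 314 ± 8.84 CPM in their AireKO counterparts. It was 434 ± 38.1 CPM in lymph node AGF− KI/+ cells and 345 ± 55.7 CPM in AireKO ones. Bone marrow total DCs held 1080 ± 98.2 CPM, bone marrow AGF+ KI/+ cells 1099 ± 147 CPM and AGF+ AireKO cells 1066 ± 68.7 CPM. The 3 bone marrow groups did not differ beyond their spread, and every bone marrow library lay above every lymph node library. In bulk RNA a smaller share of cells that express a gene and less of its RNA per cell cannot be told apart.

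**Figure D1:**
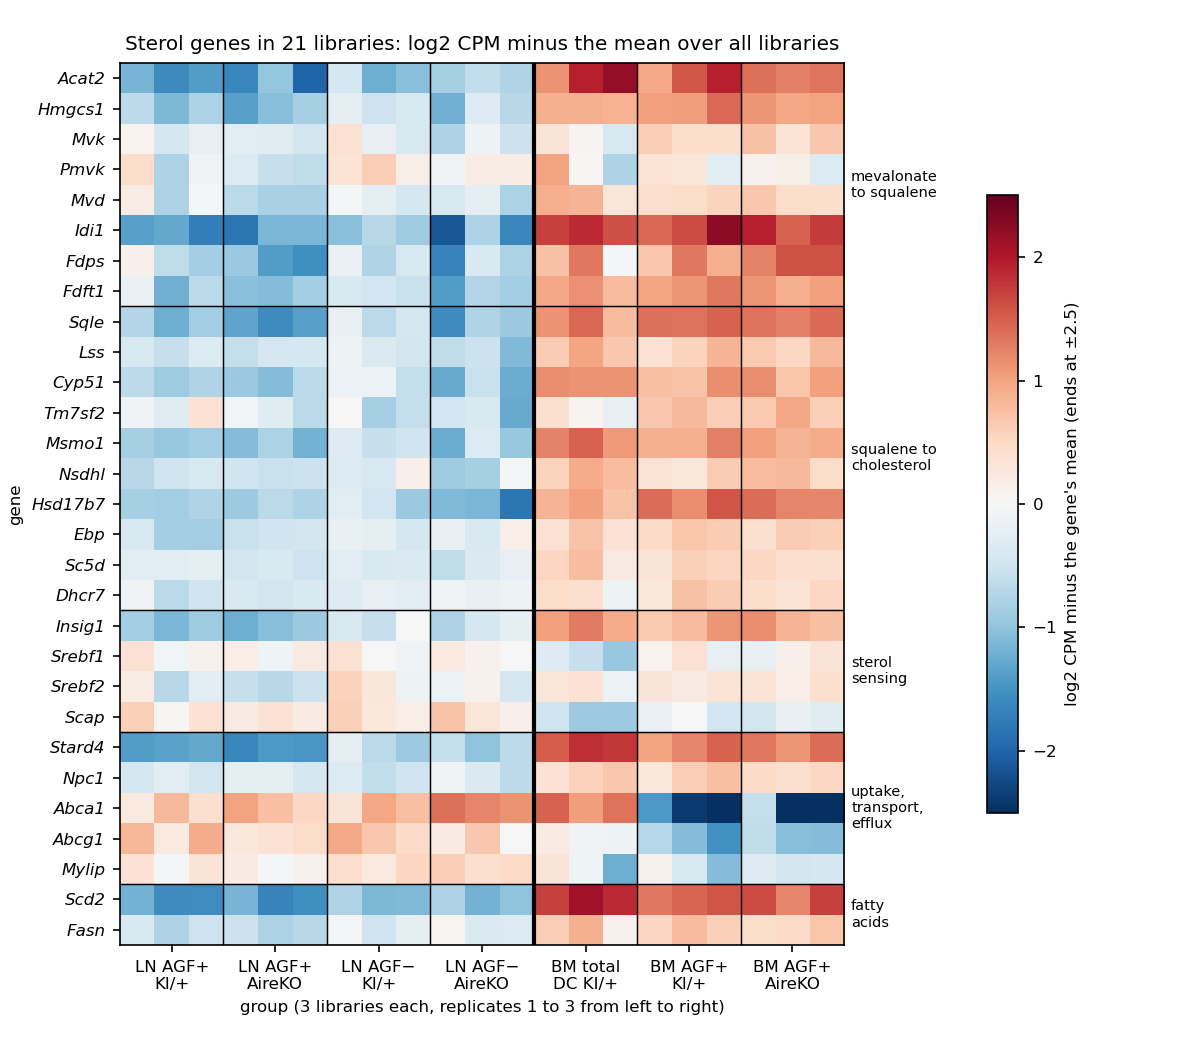
Log2 CPM of each of the 29 genes minus that gene's mean over the 21 libraries, in colour (red higher, blue lower, scale ending at ±2.5); columns are libraries in 7 groups of 3, rows are genes by role, and the thick line separates lymph node (LN) from bone marrow (BM). Of the 18 synthesis enzymes 13, with Insig1, Stard4 and Scd2, are lower in every lymph node column than in every bone marrow column. Mvk, Pmvk, Fdps, Tm7sf2 and Dhcr7 overlap between the tissues, and Abca1 is lowest in the 6 bone marrow AGF+ libraries.

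Over all libraries, 18 of the 29 genes had each of their 12 lymph node values below each of their 9 bone marrow values, a pattern held by 10.2% of all genes tested. The opposite pattern, held by 8.47% of all genes, was shown by 1 of the 29, Scap. Of the 18 enzymes, 13 were separated in this way, 5 of the 8 early ones and 8 of the 10 late ones.

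Among the 8 genes from acetyl-CoA to squalene, 7 were lower in lymph node AGF+ KI/+ cells and 7 in AireKO cells. Hmgcs1, which condenses acetoacetyl-CoA to HMG-CoA, measured 46.2, 33.7 and 42.3 CPM in the 3 lymph node AGF+ KI/+ libraries and 148, 150 and 196 CPM in the bone marrow ones. Its values in the AGF− libraries of lymph node were 61.5, 51.0 and 55.6 CPM, and in bone marrow total DCs they were 135, 138 and 133 CPM. None of these ranges overlapped between the tissues. The difference was 4.05-fold in AGF+ KI/+ cells (log2 -2.02, SE 0.18, adjusted p = 1.64e-08) and 2.41-fold between the other DC sorts (log2 -1.27, SE 0.18, adjusted p = 5.41e-06).

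Idi1, the isomerase that supplies dimethylallyl diphosphate, was the enzyme with the largest tissue difference in AGF+ cells of both genotypes. It measured 12.2, 13 and 9.42 CPM in lymph node AGF+ KI/+ cells and 84.3, 96.6 and 146 CPM in bone marrow AGF+ KI/+ cells, a 9.38-fold difference (log2 -3.23, SE 0.27, adjusted p = 4.96e-09). Bone marrow replicate 3 was the highest of all its values. Acat2, the cytosolic thiolase that makes acetoacetyl-CoA, was 7.47-fold lower in the same comparison, at 7.62 ± 1.16 against 57.0 ± 18.9 CPM (n = 3 each). The steps between mevalonate and Idi1 moved less. Mvk, mevalonate kinase, and Mvd, mevalonate diphosphate decarboxylase, were 1.58-fold and 1.57-fold lower (adjusted p = 0.0131 and 0.00965), and both lost the call without the libraries numbered 2 or without lymph node replicate 2 alone. Pmvk, the kinase between them, had a log2 difference of -0.20 with a 95% interval of -0.88 to 0.48 and was called in no comparison between the tissues. Fdps and Fdft1, the farnesyl diphosphate and squalene synthases, were lower by log2 differences of -1.36 and -1.76. Fdps had the lowest level per kilobase of exon of the 29 in each lymph node group, and 26.7% of its exon bases lie in another gene on the same strand, so its counts depend on how such reads were assigned. Fdft1 shares 18.3% of its exon bases with Ctsb on the opposite strand, and no source used here gives the strand setting of the counting. Hmgcs1 and Idi1 share 12.1% and 9.2% of theirs with genes on the opposite strand.

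All 10 genes from squalene to cholesterol were lower in lymph node AGF+ cells of both genotypes, and 9 of the 10 between the other DC sorts. Sqle, the squalene epoxidase that commits carbon to sterols, measured 23.1, 16.5 and 21 CPM in lymph node AGF+ KI/+ cells and 99.5, 98.0 and 107 CPM in bone marrow AGF+ KI/+ cells. The AireKO AGF+ libraries read 15.3, 12.9 and 15 CPM in lymph node and 98.6, 91.3 and 102 CPM in bone marrow. The tissue ranges were apart in both genotypes, with a 5.03-fold difference in KI/+ (log2 -2.33, SE 0.19, adjusted p = 4.54e-09) and 6.74-fold in AireKO (log2 -2.75, SE 0.20, adjusted p = 8.19e-10). Cyp51, the lanosterol demethylase and the gene of this role with the highest level per kilobase of exon in AGF+ KI/+ cells of both tissues, measured 44.6, 38.1 and 41.6 against 119, 115 and 157 CPM in AGF+ KI/+ cells. That is a 3.15-fold difference (log2 -1.66, SE 0.18, adjusted p = 2.84e-07). Hsd17b7, the sterol 3-ketoreductase, and Msmo1, the methyl sterol oxidase, were 4.61-fold and 3.73-fold lower. Lss, lanosterol synthase, Ebp, a sterol isomerase, Nsdhl, a sterol decarboxylase, and Dhcr7, the 7-dehydrocholesterol reductase, differed by 1.92-fold to 2.45-fold. Sc5d, the lathosterol desaturase, and Tm7sf2, a sterol reductase, differed least, at 1.68-fold and 1.61-fold. In the annotation 12.1% of the exon bases of Tm7sf2 lie in another gene on the same strand. Tm7sf2 was not called between the other DC sorts (log2 -0.55, 95% interval -1.08 to -0.02, adjusted p = 0.0738) and lost its call in KI/+ cells without the libraries numbered 2, with library size alone, and without lymph node replicate 1 or 2 or bone marrow replicate 2.

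**Figure D2:**
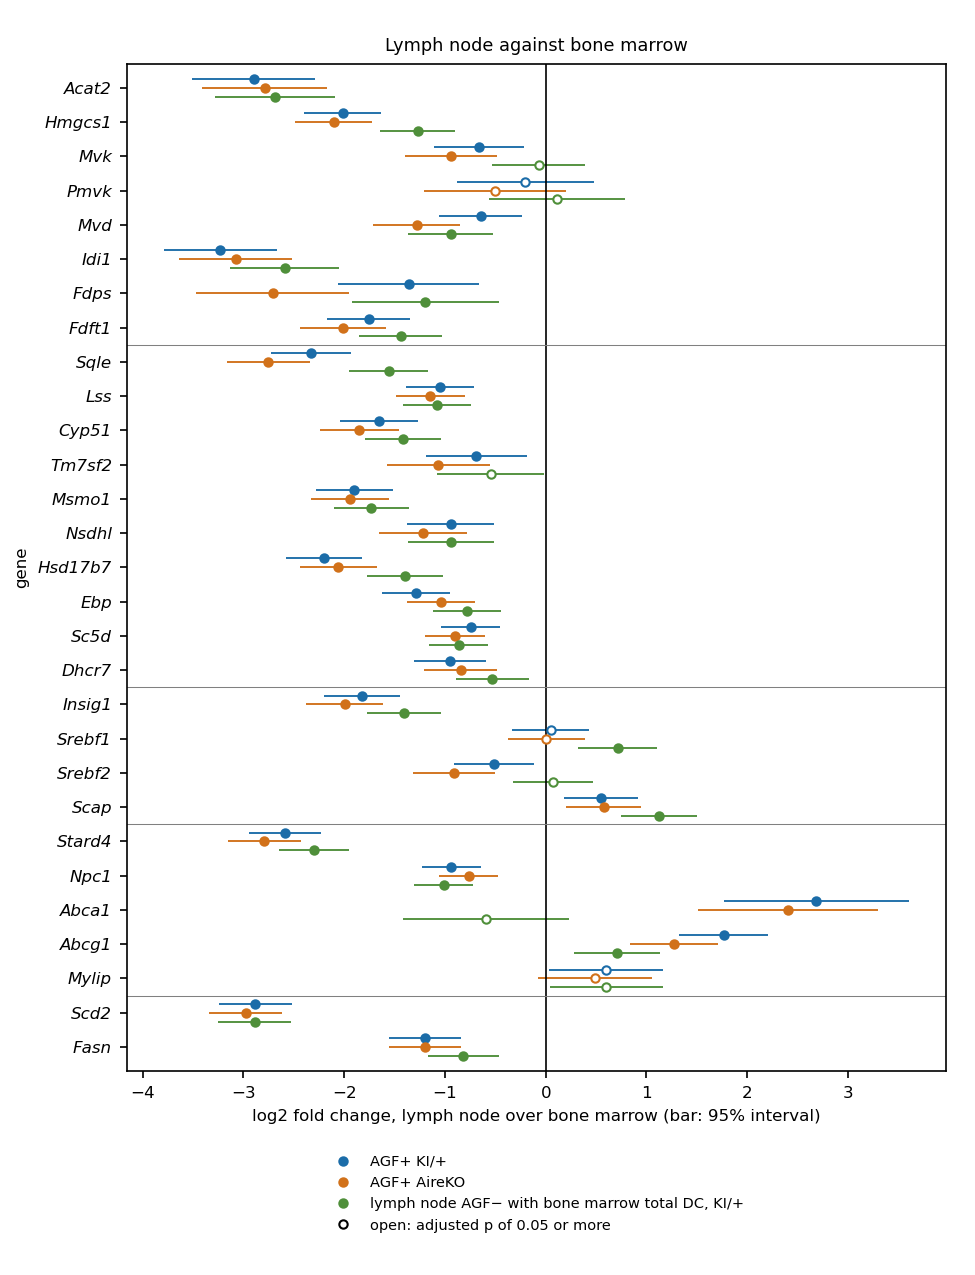
Log2 fold change of each of the 29 genes, lymph node over bone marrow, with 95% intervals (x axis), in AGF+ KI/+ cells (blue), AGF+ AireKO cells (orange) and lymph node AGF− against bone marrow total DC (green); filled points have an adjusted p under 0.05 and lines divide the roles. Nearly all enzymes sit left of 0 in the 3 comparisons, and Abca1 lies at 2.68 and 2.41 in AGF+ cells but at -0.59 between the other sorts.

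The sterol sensors did not all move one way. Insig1, itself a target of SREBP, measured 20.6, 16.8 and 20.2 CPM in lymph node AGF+ KI/+ cells and 58.3, 64.4 and 80.5 CPM in bone marrow AGF+ KI/+ cells, a 3.54-fold difference (log2 -1.82, SE 0.18, adjusted p = 5.39e-08). It was also lower in lymph node in AireKO cells (log2 -1.99) and between the other sorts (log2 -1.41). Scap, the escort of SREBP, went the opposite way: 93.5, 63.8 and 79.3 CPM in lymph node AGF+ KI/+ cells against 55.5, 61.7 and 44.7 CPM in bone marrow, 1.46-fold higher (log2 0.55, SE 0.18, adjusted p = 0.0127). Between the other sorts Scap was 2.18-fold higher in lymph node (log2 1.12, SE 0.18, adjusted p = 2.68e-05). Leaving out lymph node replicate 1 or bone marrow replicate 3 ended the call in AGF+ KI/+ cells. The log2 difference in AireKO cells was 0.58 (adjusted p = 0.0106), and without lymph node replicate 2 or bone marrow replicate 1 that call ended too. In the annotation 13.2% of the exon bases of Scap are shared with a gene on the opposite strand.

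Srebf2, which encodes the main activator of cholesterol synthesis and had the highest level per kilobase of exon of the sensors, measured 244, 133 and 179 CPM in lymph node AGF+ KI/+ cells and 270, 253 and 271 CPM in bone marrow. Its difference was 1.43-fold (log2 -0.51, SE 0.19, adjusted p = 0.0287), a call that ended with library size alone, without the libraries numbered 2, and without lymph node replicate 2, lymph node replicate 3, bone marrow replicate 1 or bone marrow replicate 3. In AireKO AGF+ cells Srebf2 was 1.88-fold lower in lymph node (log2 -0.91, adjusted p = 0.000568), and between the other sorts the log2 difference was 0.07 (95% interval -0.33 to 0.47). Srebf1, which encodes the isoform tied more closely to fatty acids, gave log2 differences of 0.05 (-0.33 to 0.43) and 0.00 (-0.38 to 0.39) in AGF+ cells and 0.72 (SE 0.19, adjusted p = 0.0029) between the other sorts. Its tissue difference there came with low values in bone marrow total DCs, 54.1, 45.4 and 35.0 CPM, beside 88.4, 68.6 and 63.8 CPM in lymph node AGF− cells.

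Carriers and export pumps split by direction. Stard4, a soluble sterol carrier, measured 13.1, 13.6 and 14.2 CPM in lymph node AGF+ KI/+ cells and 69.6, 80.5 and 95.9 CPM in bone marrow AGF+ KI/+ cells. This 6.01-fold difference (log2 -2.59, SE 0.17, adjusted p = 2.06e-10) had the second smallest adjusted p of the 29, after Scd2. Npc1, which lets cholesterol leave the lysosome, was 1.91-fold lower in lymph node, at 136, 151 and 134 against 219, 280 and 306 CPM (log2 -0.94, SE 0.14, adjusted p = 1.21e-05).

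Abcg1, which hands cholesterol to lipoprotein particles, was the gene with the highest level per kilobase of exon among the 29 in each lymph node group. It measured 556, 372 and 599 CPM in lymph node AGF+ KI/+ cells and 191, 148 and 110 CPM in bone marrow AGF+ KI/+ cells, with no overlap and a 3.40-fold higher level in lymph node (log2 1.77, SE 0.21, adjusted p = 7e-07). Between the other sorts it was 1.64-fold higher in lymph node (log2 0.71, SE 0.20, adjusted p = 0.00587). Abca1, which loads cholesterol onto lipid-poor apolipoprotein, measured 121, 178 and 134 CPM in lymph node AGF+ KI/+ cells against 37.9, 19.4 and 10.6 CPM in bone marrow, 6.43-fold higher (log2 2.68, SE 0.44, adjusted p = 3.45e-05). In AireKO cells the values were 205, 172 and 145 against 67.5, 16.7 and 12.5 CPM (log2 2.41, SE 0.43, adjusted p = 9.72e-05). Bone marrow replicate 1 was the highest of the 3 in both genotypes and still lay below every lymph node AGF+ value. Between the other sorts Abca1 lay the opposite way, at 128, 200 and 172 CPM in lymph node AGF− cells and 283, 210 and 260 CPM in bone marrow total DCs. These ranges did not overlap, but the difference did not pass the test (log2 -0.59, 95% interval -1.41 to 0.23, adjusted p = 0.209). Mylip, the ligase that degrades lipoprotein receptors, had log2 differences of 0.60, 0.49 and 0.60 in the 3 tissue comparisons, and none passed the test (adjusted p = 0.0688, 0.141 and 0.0643).

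Both fatty acid enzymes were lower in lymph node. Scd2, a stearoyl-CoA desaturase, had the highest level per kilobase of exon of the 29 in each bone marrow group, at 555, 612 and 663 CPM in AGF+ KI/+ cells, beside 97.3, 74.4 and 76.2 CPM in lymph node, and differed 7.38-fold (log2 -2.88, SE 0.17, adjusted p = 7.88e-11). Fasn, fatty acid synthase, measured 141, 107 and 128 against 266, 317 and 278 CPM (2.29-fold, log2 -1.20, SE 0.17, adjusted p = 6.69e-06). Without the libraries numbered 2 the tissue comparisons called 19 lower and 3 higher in AGF+ KI/+, 23 lower and 2 higher in AGF+ AireKO, and 17 lower and 3 higher between the other sorts. Over all genes these fits called 3885 lower and 3332 higher, 3405 and 2879, and 3528 and 3667, in that order. With all libraries they were 4671 and 4694, 4439 and 4436, and 4721 and 4971.

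**Figure D3:**
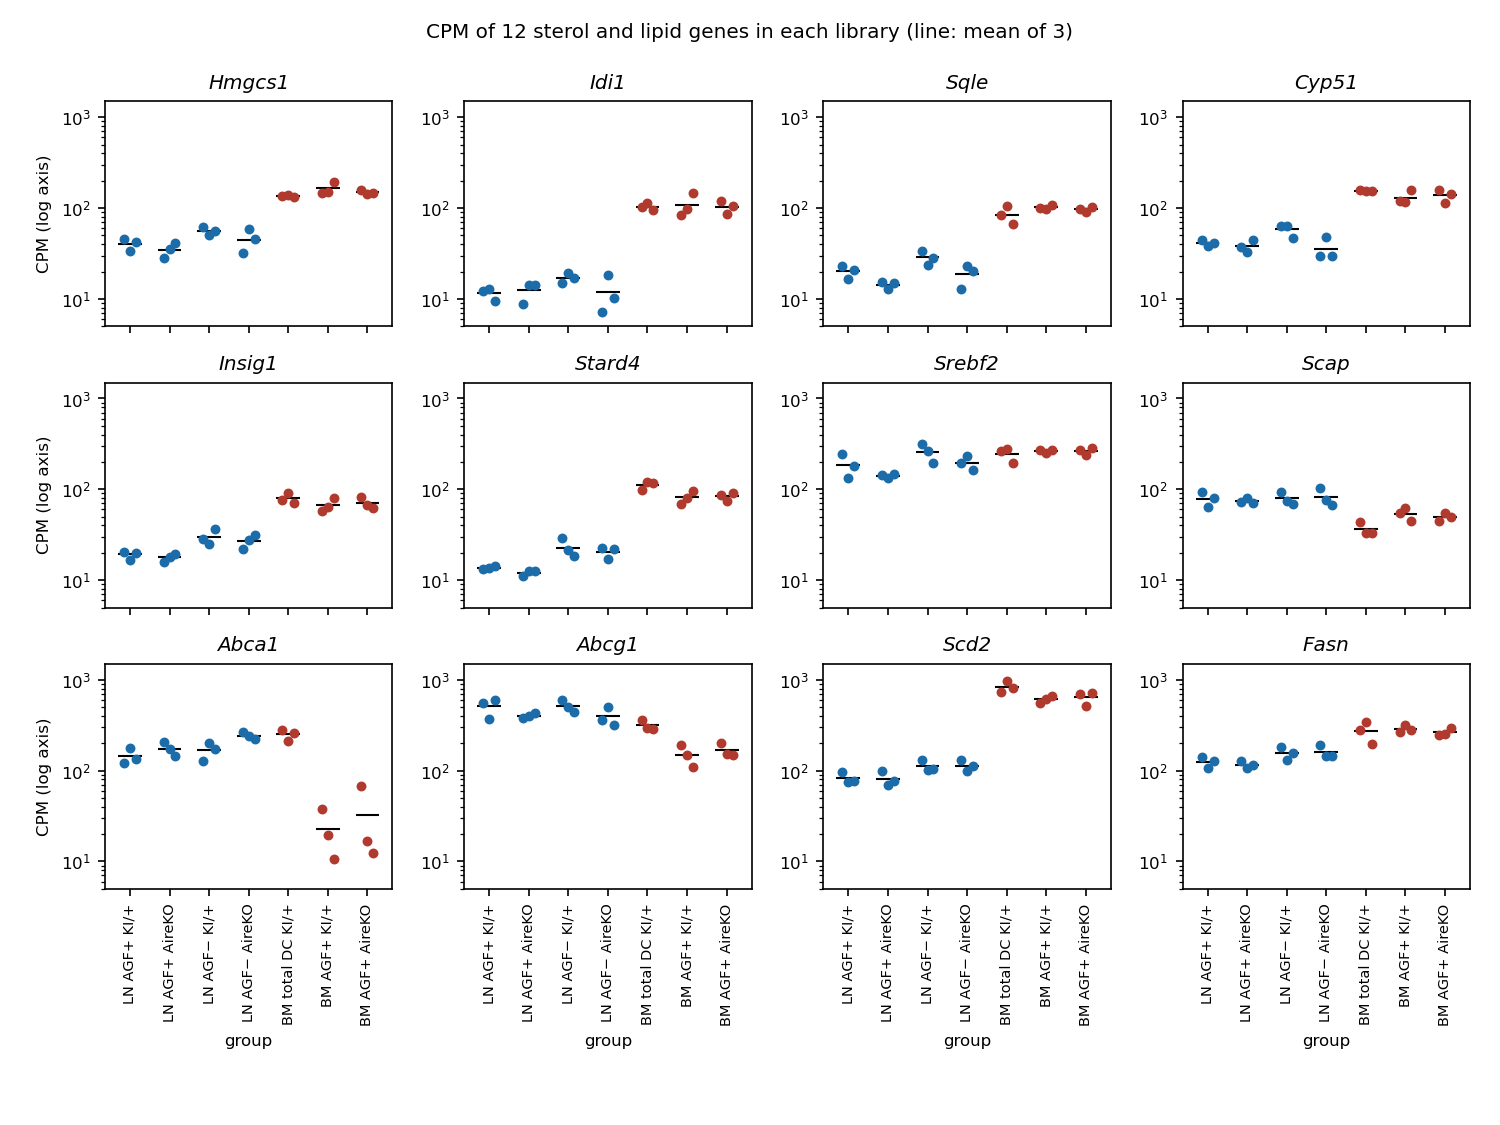
CPM (log axis) of 12 of the genes in each library, by group (x axis); points are libraries, lines are means of 3, lymph node (LN) blue and bone marrow (BM) red. Hmgcs1, Idi1, Sqle, Cyp51, Insig1, Stard4 and Scd2 step up from lymph node to bone marrow in every library, and Abca1 drops to 10.6 to 67.5 CPM in the bone marrow AGF+ libraries.

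Markers of dividing cells and of other cell types moved with the tissue. All 10 of 10 such markers (Mki67 and others) were lower in lymph node AGF+ cells, and their summed level was 154 to 179 CPM in lymph node AGF+ KI/+, 344 to 399 CPM in lymph node AGF− KI/+, 671 to 1032 CPM in bone marrow total DC and 1337 to 2534 CPM in bone marrow AGF+ KI/+ libraries, with none of the 10 at 0. Between the other sorts 8 of the 10 were lower in lymph node. There all 11 B cell markers were higher in lymph node, with sums of 369 to 815 against 29 to 39.6 CPM, and 12 of 13 T and NK cell markers, with sums of 75.3 to 388 against 12.8 to 25.7 CPM. In AGF+ KI/+ cells 3 of the 11 B cell markers were higher and 6 lower, and 2 of the 13 T and NK cell markers were higher and 2 lower. Summed monocyte and macrophage markers lay at 463 to 597 CPM in lymph node and 152 to 260 CPM in bone marrow AGF+ KI/+ cells. Between the other sorts they lay at 2125 to 2353 and 1284 to 1782 CPM. Summed markers of mature DCs were lower in lymph node, at 3213 to 5760 against 5972 to 7269 CPM in AGF+ KI/+ cells. The leading genes of this sum were Fscn1, Cacnb3 and Relb in lymph node and Ccl22, Fscn1 and Ccr7 in bone marrow. The sum does not show whether each of these 10 markers was lower. The part of all these markers in the differences of the sterol genes was not tested.

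Wider lists of lipid genes were counted as well. Of 18 tested genes for fatty acid synthesis and desaturation, 16 were lower and 1 higher in lymph node AGF+ KI/+ cells, 16 and 1 in AireKO cells, and 14 and 1 between the other sorts. Fads2, a polyunsaturated fatty acid desaturase, measured 9.34, 5.19 and 6.35 against 125, 159 and 170 CPM in AGF+ KI/+ cells (log2 -4.44, SE 0.37, adjusted p = 5.98e-09), and Acaca, the acetyl-CoA carboxylase, measured 41.3, 47.4 and 36.4 against 106, 110 and 142 CPM (log2 -1.51, SE 0.13). Of 32 other sterol genes tested, 9 were higher and 10 lower in KI/+, 10 and 9 in AireKO cells, and 11 and 13 between the other sorts. Over all genes 27.2%, 25.7% and 28.8% were higher in these comparisons and 27.1%, 25.7% and 27.3% lower. The counts of other sterol genes in AGF+ cells were near these shares. Cyp27a1, which makes an oxysterol ligand of LXR, was higher in lymph node, at 155, 115 and 129 against 17.6, 15 and 11.3 CPM (log2 3.19, SE 0.26, adjusted p = 3.75e-09). Scaling by library size alone moved the median of all genes in the 3 tissue comparisons from 0.04, 0.04 and 0.05 to 0.20, 0.19 and 0.29, and there 21, 23 and 19 of the 29 genes were lower and 4, 3 and 4 higher.

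Since many synthesis genes moved together, the 250 bases before their start sites were read from RefSeq (GRCm38.p6), where 22 of the 29 genes had a window. The letters searched on both strands were TCACNCCAC, the core of a sterol regulatory element that SREBP binds, and CCAAT, the box bound by NF-Y, which works beside SREBP at such promoters. The windows shown are those of Hmgcs1, Idi1 and Insig1, lower in lymph node in all 3 tissue comparisons, and of Abca1, higher there in AGF+ cells. Each is written 5′ to 3′ on the gene's strand and ends at the last base before the start site. Hmgcs1 lies at chr13:119690101-119690350 (plus strand), Idi1 at chr13:8885356-8885605 (plus), Insig1 at chr5:28071162-28071411 (plus) and Abca1 at chr4:53159896-53160145 (minus), and capitals mark either motif, with ATTGG being CCAAT on the opposite strand.
Hmgcs1: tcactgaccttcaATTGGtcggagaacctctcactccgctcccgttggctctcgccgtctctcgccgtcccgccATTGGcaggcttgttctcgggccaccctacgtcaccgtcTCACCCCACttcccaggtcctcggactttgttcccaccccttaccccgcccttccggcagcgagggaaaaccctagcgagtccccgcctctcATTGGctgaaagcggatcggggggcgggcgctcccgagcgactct
Idi1: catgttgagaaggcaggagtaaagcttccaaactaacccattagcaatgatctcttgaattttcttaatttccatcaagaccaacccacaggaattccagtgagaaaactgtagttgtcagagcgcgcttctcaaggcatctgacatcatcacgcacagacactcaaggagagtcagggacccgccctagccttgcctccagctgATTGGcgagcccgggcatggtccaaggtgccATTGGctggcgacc
Insig1: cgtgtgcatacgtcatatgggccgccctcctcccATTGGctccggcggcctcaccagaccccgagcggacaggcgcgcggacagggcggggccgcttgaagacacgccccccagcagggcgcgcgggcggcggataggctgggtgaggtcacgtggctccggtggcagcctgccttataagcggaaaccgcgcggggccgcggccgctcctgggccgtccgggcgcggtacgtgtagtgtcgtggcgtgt
Abca1: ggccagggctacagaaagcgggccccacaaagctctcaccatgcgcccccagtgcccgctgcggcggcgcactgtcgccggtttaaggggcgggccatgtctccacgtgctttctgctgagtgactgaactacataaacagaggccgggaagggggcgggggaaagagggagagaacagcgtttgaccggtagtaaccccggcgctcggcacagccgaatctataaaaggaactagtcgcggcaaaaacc
The Hmgcs1 window holds 1 sterol element and 3 CCAAT boxes, that of Idi1 2 CCAAT boxes, that of Insig1 1, and that of Abca1 neither. CCAAT was present for 19 of the 22 genes and in 20 of their 28 windows (71.4%), beside 33.9% of all 32851 promoter windows of this length. The genes without it were Abca1, Acat2 and Scap, of which Acat2 was lower in lymph node. Mylip, Pmvk and Srebf1, not called between the tissues in AGF+ cells, each had it in at least 1 window. The sterol element core was found in 1.05% of all windows and, of the 22 genes, in Hmgcs1. These are matches of letters, and no binding was measured.

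Reporter-positive and reporter-negative cells of lymph node were compared next. The log2 difference of AGF+ over AGF− cells was below 0 for 23 of the 29 genes in KI/+ and 21 in AireKO cells, but few differences passed the test. In KI/+ cells 2 genes were lower and 0 higher (edgeR, adjusted p under 0.05), beside 11% of all genes lower and 21.1% called in either direction. In AireKO cells 4 were lower and 0 higher, beside 13.3% lower and 24.7% in either direction. The median log2 difference was -0.28 in both genotypes, beside 0.01 over all genes in each. By range, 8 genes in KI/+ and 10 in AireKO had all 3 AGF+ values below all 3 AGF− values, where 19.1% and 19.2% of all genes did.

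Insig1 and Stard4 were the genes called in both genotypes. Insig1 measured 20.6, 16.8 and 20.2 CPM in AGF+ and 28.1, 24.9 and 36.9 CPM in AGF− KI/+ cells (log2 -0.65, SE 0.18, adjusted p = 0.0225). In AireKO cells it measured 15.9, 17.9 and 19.5 against 21.9, 27.9 and 31.4 CPM (log2 -0.61, SE 0.19, adjusted p = 0.0273). Stard4 measured 13.1, 13.6 and 14.2 against 28.9, 21.5 and 18.2 CPM in KI/+ cells (log2 -0.75, SE 0.19, adjusted p = 0.0117) and 11.1, 12.7 and 12.5 against 22.7, 17.2 and 22 CPM in AireKO cells (log2 -0.77, SE 0.19, adjusted p = 0.00854). The sorts did not overlap for either gene in either genotype. Both calls in KI/+ cells were lost without the libraries numbered 2 (adjusted p = 0.104 for Insig1 and 0.0785 for Stard4), at log2 differences of -0.68 and -0.79. In AireKO cells the call of Stard4 held there (adjusted p = 0.0393) and that of Insig1 was lost (adjusted p = 0.145). Single libraries decided these calls as well: Insig1 lost its call in KI/+ without AGF+ replicate 2 or AGF− replicate 3, Stard4 without AGF− replicate 1, and Insig1 in AireKO without AGF+ replicate 1 or 2 or AGF− replicate 2 or 3.

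Mylip (log2 -0.41, SE 0.14, adjusted p = 0.0435) and Fasn (log2 -0.46, SE 0.16, adjusted p = 0.0441) were also lower in AireKO AGF+ cells. Each lost its call when any of the 3 AGF+ libraries was left out. With the replicate number as a block, Scd2 and Fasn were added in KI/+ (adjusted p = 0.00234 and 0.0275) and Acat2, Abca1 and Scd2 in AireKO cells (adjusted p = 0.0474, 0.0471 and 0.0011), so that 4 and 7 genes were lower. The block also raised the lower calls over all 15884 genes tested, from 1746 to 2276 in KI/+ and from 2114 to 2657 in AireKO cells. Several enzymes had lower AGF+ values without a call, among them Hmgcs1 in KI/+ (log2 -0.46, 95% interval -0.90 to -0.03, adjusted p = 0.13), Sqle (log2 -0.51, adjusted p = 0.108) and Cyp51 (log2 -0.49, adjusted p = 0.0909). Abcg1 had log2 differences of -0.02 (-0.43 to 0.39) and 0.03 (-0.39 to 0.44).

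Markers of other cells differed between these sorts too. Of 12 monocyte and macrophage markers, 8 were lower in AGF+ KI/+ cells, with summed levels of 463 to 597 against 2125 to 2353 CPM and no marker at 0. All 13 T and NK cell markers were lower, with sums of 14.5 to 18.4 against 75.3 to 388 CPM and Ncr1 and Gzmb at 0 in AGF+ cells. Of 11 B cell markers 9 were lower, with sums of 75.8 to 106 against 369 to 815 CPM and none at 0. Of 10 markers of dividing cells 7 were lower. Markers of the DC subsets moved as well: of 8 cDC1 markers 5 were lower, and of 8 cDC2 markers 4 were lower and 1 higher. Of the 8 general DC markers 4 were lower and 0 higher. Their part in the sterol gene differences was not tested. Of 31 other sterol genes tested, 6 were lower and 2 higher in AGF+ KI/+ cells, and of 15 fatty acid genes 2 were lower and 1 higher. Over all genes 11% were lower and 21.1% called in either direction. Npc2, the soluble partner of Npc1 in the lysosome, was among the lower ones (124, 103 and 132 against 289, 231 and 268 CPM, log2 -1.14, SE 0.14, adjusted p = 9.49e-05). So was Nr1h3, which encodes an LXR receptor (6.80, 15.3 and 7.89 against 26.7, 26.1 and 16.8 CPM, log2 -1.20, SE 0.29, adjusted p = 0.00808). Scd1, a paralog of Scd2, was lower in AGF+ cells (1.42, 5.95 and 9.86 against 35.4, 84.6 and 63.2 CPM, log2 -3.47, SE 0.53, adjusted p = 0.000434).

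In bone marrow the AGF+ sort differed from total DCs mainly in the export pumps. There 4 of the 29 genes were higher and 4 lower in AGF+ KI/+ cells, beside 22.8% of all 15503 genes tested higher and 21.6% lower, shares above those of the members, with a median log2 difference of 0.03 beside 0.02 over all genes. With library size alone the split was 6 higher and 2 lower, at medians of 0.14 beside 0.13 over all genes. Abca1 measured 37.9, 19.4 and 10.6 CPM in AGF+ cells and 283, 210 and 260 CPM in total DCs. The ranges were far apart, and the difference was 11.1-fold (log2 -3.47, SE 0.58, adjusted p = 0.000646). Abcg1 measured 191, 148 and 110 against 362, 296 and 288 CPM, 2.09-fold lower (log2 -1.06, SE 0.19, adjusted p = 0.00116). Abca1 and Abcg1 kept their calls in each of the 15 alternatives run, also without the libraries numbered 2 (adjusted p = 0.015 and 0.0289).

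The other 6 calls were smaller. Tm7sf2 (log2 0.60), Hsd17b7 (0.54), Srebf1 (0.71) and Scap (0.57) were higher in bone marrow AGF+ cells, with adjusted p of 0.0201, 0.0123, 0.0136 and 0.0148. Stard4 (log2 -0.45, adjusted p = 0.0252) and Scd2 (log2 -0.44, adjusted p = 0.0297) were lower. Stard4 was thus lower in AGF+ cells in each of the 3 reporter comparisons, which share no library. The 2 lymph node comparisons are not independent, as they come from 1 fit. Their AGF− libraries of the same number also deviated from their group means together across genotypes (correlations of 0.36 to 0.43). Without the libraries numbered 2, Hsd17b7, Abca1 and Abcg1 remained called, and without total DC replicate 3 no gene was called as higher. Stard4 and Scd2 also lost their calls with library size alone, without total DC replicate 2 or 3, and without AGF+ replicate 1 or 2. With the replicate block Mvk was added (adjusted p = 0.0316). The enzymes as a whole gave 2 higher and 0 lower calls of 18. Among them Hmgcs1 had a log2 difference of 0.30 (95% interval 0.03 to 0.56, adjusted p = 0.0663), and Insig1 had -0.22 (-0.58 to 0.13).

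Monocyte and macrophage markers moved with the pumps. Of 12 such markers 10 were lower in bone marrow AGF+ cells, with summed levels of 152 to 260 CPM beside 1284 to 1782 CPM in total DCs, none at 0, and Csf1r, the receptor for macrophage growth factor, at 71.6, 46.1 and 17 against 614, 579 and 379 CPM. Of 10 markers of dividing cells, 9 were higher in AGF+ cells. Of 9 B cell markers tested 8 were higher and 1 lower, with sums of 258 to 301 against 29 to 39.6 CPM. All 4 T and NK cell markers tested were higher, with sums over the 13 listed of 86.4 to 124 against 12.8 to 25.7 CPM and Cd2 and Ncr1 at 0 in both sorts. Of 7 cDC2 markers tested 6 were lower and 1 higher (577 to 716 against 1538 to 1745 CPM). Of the 8 general DC markers 2 were higher and 2 lower, with log2 differences over the 8 from -2.99 to 3.15. Their part in the differences of Abca1 and Abcg1 was not tested. Of 31 other sterol genes tested in bone marrow, 5 were higher and 7 lower, and of 18 fatty acid genes 4 were higher and 4 lower. Over all genes 22.8% were higher and 21.6% lower, so neither list stood out from the background. Lipa, the lysosomal lipase that frees cholesterol from its esters, was among the lower ones (40.1, 37.7 and 31.0 against 108, 150 and 110 CPM, log2 -1.75, SE 0.21, adjusted p = 6.42e-05).

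**Figure D4:**
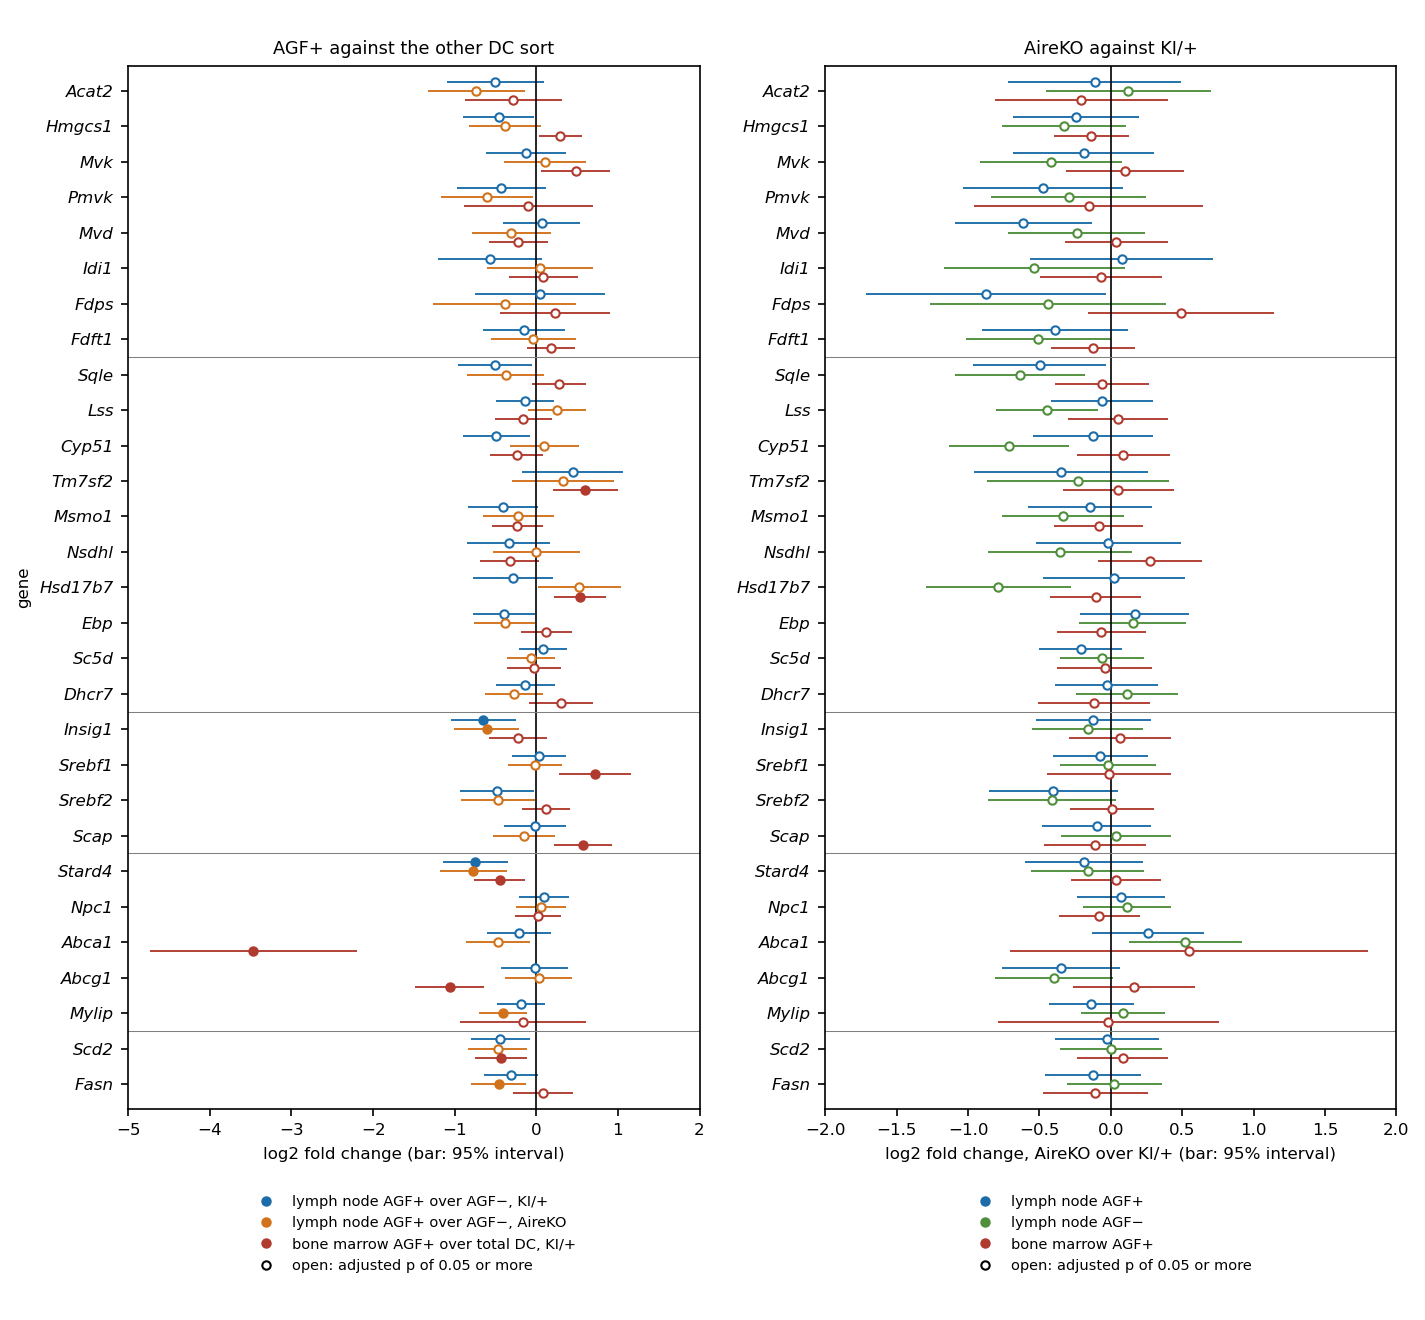
Log2 fold change with 95% intervals (x axis) of the 29 genes between AGF+ cells and the other DC sort (left) and between AireKO and KI/+ (right); colours are given in the key and filled points have an adjusted p under 0.05. On the left Abca1 stands at -3.47 in bone marrow and at -0.21 (KI/+) and -0.47 (AireKO) in lymph node, and no point is filled on the right.

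Whether the reporter difference itself depends on the tissue was tested as an interaction in KI/+ cells, (lymph node AGF+ minus AGF−) minus (bone marrow AGF+ minus total DC). It was higher for 2 and lower for 3 of the 29 genes, beside 9.75% of all genes higher and 11.2% lower, so the members' count was no larger than the background. Abca1 differed most (log2 3.28, SE 0.59, adjusted p = 0.000388): the AGF+ difference was -0.21 in lymph node and -3.47 in bone marrow. For Abcg1 the interaction was 1.06 (SE 0.29, adjusted p = 0.012), from -0.02 and -1.06. Hmgcs1 (log2 -0.75, SE 0.25, adjusted p = 0.0384), Sqle (log2 -0.77, SE 0.26, adjusted p = 0.0423) and Hsd17b7 (log2 -0.81, SE 0.26, adjusted p = 0.0281) had the opposite sign. Their AGF+ differences were -0.46, -0.51 and -0.28 in lymph node and 0.30, 0.27 and 0.54 in bone marrow. Without the libraries numbered 2, Sqle, Abca1 and Abcg1 remained called, and Abcg1 lost its call without lymph node AGF+ replicate 3 (adjusted p = 0.0524). The interaction shares all its libraries with the comparisons above.

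Loss of Aire was compared last, as AireKO with KI/+ cells of the same sort. It gave no call among the 29 genes in any sort with all libraries, with edgeR or limma voom after the filter on low counts. The DESeq2 test, run on all genes with a count, gave none either. In lymph node AGF+ cells 0 genes were called, beside 0.0126% of all genes. An unadjusted p under 0.05 was reached by 3 (Mvd, Sqle and Fdps), beside 583 of all 15884 genes tested. The lowest adjusted p was 0.967 and the median log2 difference -0.13. Lymph node AGF− cells also gave 0, beside 0.0063% of all genes, with the lowest adjusted p at 0.798 and a median of -0.24. There 5 members had an unadjusted p under 0.05, beside 949 of all 15884 genes tested. These 5 were Cyp51 (log2 -0.71, 95% interval -1.13 to -0.29), Hsd17b7 (-0.79, -1.30 to -0.28), Sqle (-0.64, -1.09 to -0.18), Lss (-0.45, -0.81 to -0.09) and Abca1 (0.52, 0.13 to 0.92). Of 10 markers of mature DCs, 9 were lower in AGF− AireKO cells, with 6 at an unadjusted p under 0.05. All 11 B cell and all 13 T and NK cell markers had log2 differences above 0. Of these markers 0 were called, and their part in the sterol gene differences was not tested. Cyp51 measured 29.6, 47.7 and 29.8 CPM in AGF− AireKO cells and 63.7, 63.8 and 46.9 CPM in AGF− KI/+ cells, so the ranges overlapped through AireKO replicate 2 and KI/+ replicate 3. Without that AireKO library alone, Cyp51 was called as lower (log2 -0.99, adjusted p = 0.0403), and 89 genes in place of 1 were called over the whole table. With no filter on low counts, Cyp51 and Abca1 were called there as well. Leaving out KI/+ replicate 2 from the AGF+ cells moved the count over all genes from 2 to 7, with none of the 29 among them.

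Bone marrow AGF+ cells gave 0 calls beside 0.0129% of all genes, with a median of -0.02. An unadjusted p under 0.05 was reached by 0 members, beside 259 of all 15503 genes tested. Over the 3 sorts the 95% intervals of the 29 log2 differences reached from -1.71 (Fdps, lymph node AGF+) to 1.80 (Abca1, bone marrow AGF+). Whether the genotype difference depended on the sort in lymph node, or on the tissue in AGF+ cells, was tested too. These tests gave 0 calls beside 0.0063% and 0% of all genes. An unadjusted p under 0.05 was reached by 1 (Hsd17b7) and 2 (Fdps and Mvd) members. Over all genes 261 of 15884 and 456 of 17265 reached it. DESeq2 and limma voom also gave 0 calls in both.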

How the data were processed

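Sorted cells were read paired-end at 150 bp from Ovation SoLo libraries, per the labels' protocols. Per the submitters' processing notes the tools include fastp (0.20.0) and STAR (2.7.3a), and the build is mm10 (GRCm38). The notes also list HTSeq 0.11.2, SAMtools 1.9, Picard 2.21.1, and edgeR 3.38.1. No source used here gives the strand setting, the annotation release or the rule for reads on several genes. The authors deposited raw counts per gene and a normalized table, and everything here was computed from the deposited counts. Of the 55471 genes, 327 with 0.0139% of the counts had no symbol in GENCODE vM21.

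The members and all gene and marker lists were chosen with earlier results of these data known. Genes were tested with edgeR 4.0.16 in R 4.3.3: TMM, filterByExpr by group, the quasi-likelihood F test, and Benjamini-Hochberg adjustment over all genes with a threshold of 0.05. Lymph node (12 libraries) and bone marrow (9) were fitted apart, and tissues were compared in a fit of all 21. All 29 members passed the filter in each fit, and groups come from the labels' titles and genotypes. CPM used the TMM sizes of that last fit, which were 0.874 to 1.09 of the totals. The test was tested on simulated counts. A count of 0 would allow up to 0.458 to 0.767 CPM (3 counts, counting error only). Replicates differed by more than counting noise in all 21 pairs (chi-square per degree of freedom 4.46 to 20.3).

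Besides the members, up to 5 genes per comparison with the smallest adjusted p were open to naming from the wider lists, and some of these are not reported here. Values in every library are given for members called often and for the leading member of each role. In 6 of 9 pairs of groups within a tissue, each number's samples deviated from their group means together (correlation above 0.1). The reporter comparisons are among these, so the block is given there. The alternatives tried were other scalings (DESeq2 1.42.0 size factors, or totals with no TMM), other filters (none, or 10 counts in 3 libraries), other tests (the DESeq2 Wald test, and voom with quality weights from limma 3.58.1), fits of the compared groups only, the replicate block, and fits without the libraries numbered 2 or without 1 library at a time. Python 3.11.15 with pandas 2.3.3, numpy 2.4.6, and matplotlib 3.10.9 made the tables and figures.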

Additional observations from a re-analysis of the deposited data

Results flagged for a closer look

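For 5 genes the AGF+ difference was not the same in the tissues by the interaction test in KI/+ cells (lymph node AGF+ minus AGF−, less bone marrow AGF+ minus total DC). Of the 29 genes 2 were higher and 3 lower in this test, beside 9.75% and 11.2% of all genes, so the count is near the background. Abca1, an export pump, gave a log2 interaction of 3.28 and was called in each of the 21 alternatives. Abcg1, its partner in export, gave 1.06. The synthesis enzymes Hmgcs1, Sqle and Hsd17b7 gave -0.75, -0.77 and -0.81, and each of these 3 lost its call in 7 to 10 of the 21 alternatives. The bone marrow sorts came from different gates, so reporter and gate cannot be told apart there.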

How the results depend on the processing

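Of 5713 values of single members under the alternatives, 0 changed sign against a called value, 103 lost a call and 68 gained one, and 339 values without a call changed sign (the largest at 0.88 on the log2 scale). The tissue counts held: 22 to 27 members were called in AGF+ KI/+, 25 to 28 in AGF+ AireKO and 20 to 25 between the other sorts, and 21 of 26, 25 of 26 and 20 of 23 calls were kept in every alternative. With the replicate block, the tissue comparisons gave 27, 26 and 24, with Mylip added in KI/+ (adjusted p = 0.0289) and between the other sorts (0.0235). Over all genes the block called 9859, 9406 and 10108 in place of 9365, 8875 and 9692.

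Lymph node reporter calls in KI/+ (2 members) became 5 with no filter on low counts, 6 with limma voom, 4 with the replicate block and 0 without the libraries numbered 2, and 1 to 4 with 1 library left out (4 without AGF+ replicate 1). In AireKO (4 members) they became 2 with library size alone, 7 with the block, 1 without the libraries numbered 2 and 2 to 4 with 1 library left out. Genotype calls in lymph node AGF− cells were 2 with no filter and 0 to 1 with 1 library left out (1 without AireKO replicate 2). In bone marrow, 8 calls became 3 without the libraries numbered 2 and 3 to 9 with 1 library left out (3 without total DC replicate 3 or AGF+ replicate 2). The reporter interaction (5 members) gave 3 without the libraries numbered 2 and 2 to 9 with 1 left out (9 without lymph node AGF+ replicate 1). The block changed no other count of members by more than 1.5 times, and the causes were not tested. The block also raised the lymph node reporter calls over all genes, from 3349 to 4338 in KI/+ and from 3926 to 4969 in AireKO. Over all genes, leaving out the libraries numbered 2 cut the calls from 3349 to 1942 (lymph node reporter, KI/+) and from 3926 to 2670 (AireKO). It also cut them from 6881 to 3858 (bone marrow) and from 3620 to 1783 (interaction). With no filter the genotype comparisons called 97, 270 and 26 genes in place of 2, 1 and 2, and leaving out 1 library gave up to 7 in lymph node AGF+ cells (without KI/+ replicate 2) and up to 89 in AGF− cells (without AireKO replicate 2). Depth limits Fdps, whose lowest library holds 8 counts.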
